A study of Arabidopsis thaliana with 12 samples.

Results

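Of the 22746 Arabidopsis probe sets tested, 121 had a higher mean signal in wild-type shoots after 3 weeks at 4 °C, little or no gain in the salicylic acid mutant sid2-1, and a lower mean in the mutant than in wild type in the cold. They were chosen on group means of the deposited log2 signals. The wild-type mean had to be at least 1.5 higher at 4 °C than at 22 °C and the sid2-1 mean had to gain less than 0.75. At 4 °C the sid2-1 mean had to lie at least 1.5 below that of wild type, and the wild-type mean had to reach 5. The rule was met by 134 probe sets, from which 13 that the rule names as exceptions were left out. Of the 121 members, 47 are annotated to 1 gene each, 1 to several genes and 73 to none in the tables used here. The arrays measured transcripts and no salicylic acid, so the members are described by their rule, as genes induced by cold in wild type and not in sid2-1.

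The 12 arrays form 4 groups of 3 biological replicates, each from the entire aerial part of plants in the Col-0 background. Wild type and sid2-1 were grown in soil at 22 °C with a photoperiod of 12 h for about 23 days, and either sampled or moved to 4 °C for 3 weeks under the same photoperiod. Harvest was 4 h after lights on, per the labels' treatment protocol, and the cold plants were older by the weeks of treatment, so that age and cold cannot be told apart. Only the titles of warm wild type end in a mark in brackets, with no explanation given, and whether it sets that group apart, on which every wild-type cold gain rests, was not tested. The mutant is 1 allele of the gene for isochorismate synthase. That gene has no named probe set here, so the genotype labels were not checked against it.

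Salicylic acid is a plant hormone of defence against pathogens that live on living tissue. Most of what a leaf makes under attack starts in the chloroplast, where isochorismate synthase turns chorismate into isochorismate, the step that is lost in sid2 mutants. The hormone acts through NPR receptors and TGA and WRKY transcription factors, and the genes it raises include cell-surface and intracellular immune receptors, calcium sensors, antimicrobial proteins and enzymes of defence metabolites. Plants held at low temperature can build up salicylic acid without a pathogen, while the classical cold response runs through CBF factors and COR proteins.

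All arrays had medians of 4.39 to 4.47 over all probe sets, and 14.7% of all values stood at the lowest one in the table, where signals have no order. Of the green leaf markers, RCA, LHCB4.1 and LHCB4.2 are measured and had group means of 12.44 to 13.92. Of the root markers, EXPA7, a root hair expansin, was at that lowest value in all groups, while LPR2, a multicopper oxidase gene taken as a root marker, had means of 8.49 to 10.16 and was highest in wild type at 4 °C. The flower marker TUA1 had means of 7.29 to 8.14, also highest in wild type at 4 °C. The sums of log2 signals of the 2 root markers were 12.08 to 12.58 in wild type at 4 °C and 11.37 to 11.63 in sid2-1 at 4 °C. With EXPA7 constant, these sums vary with LPR2 alone, and the part of the markers in the members' values was not tested. In whole shoots, fewer cells of a type and less RNA per cell cannot be told apart.

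The median log2 signal of the members was 6.84, 7.74 and 6.36 on the 3 wild-type arrays at 4 °C. It was 4.11, 4.44 and 4.44 on the sid2-1 arrays at 4 °C. At 22 °C it was 4.33, 5.04 and 4.23 in wild type and 4.12, 4.34 and 4.27 in sid2-1. The wild-type arrays in the cold thus stood above the other 9, and sid2-1 in the cold stood where both genotypes stood at 22 °C, as the rule requires. Wild type gained between 1.51 and 4.14 (median 2.23), sid2-1 changed by -2.42 to 0.69 (median 0.04), and the genotypes differed at 4 °C by -6.16 to -1.51 (median -2.47, a 5.54-fold lower signal). All of these differences are on the log2 scale. Of the 121 members, 89 were lower in sid2-1 at 4 °C by at least 2 and 34 by at least 3. They are part of 577 probe sets with a wild-type gain of at least 1.5 and a cold mean of at least 5, of which 237 also gained at least 1.5 in sid2-1.

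**Figure D1:**
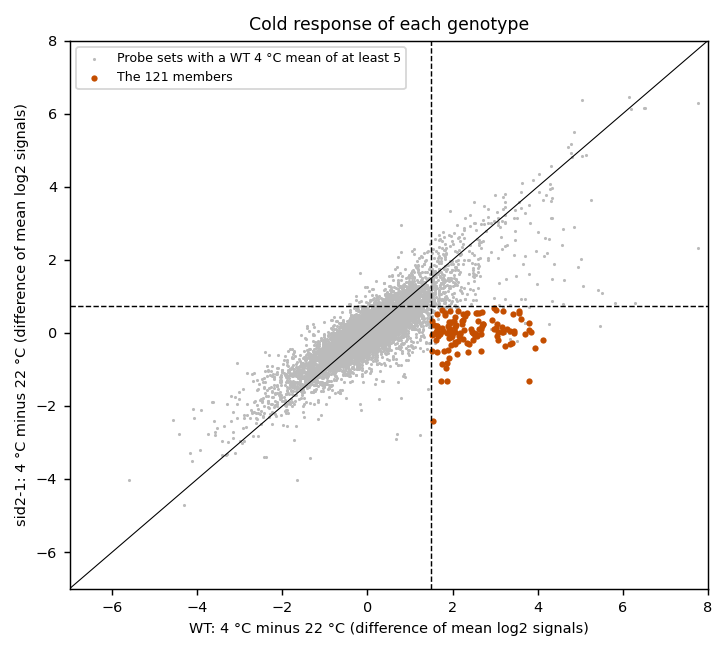
Difference of mean log2 signals between 4 °C and 22 °C in wild type (horizontal axis) and in sid2-1 (vertical axis), 1 point per probe set with a wild-type mean of at least 5 at 4 °C. Dashed lines mark the thresholds of 1.5 and 0.75 and the solid line marks equal responses. The 121 members, in orange, lie in the lower right field by construction. That field also holds 13 left-out probe sets and 33 that failed only the threshold for the genotype difference at 4 °C.

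The members were counted against limma's calls over all probe sets, for description only, because the rule used these contrasts. In the cold response of wild type 103 members were called higher, where 6.81% of all probe sets were. At 4 °C 64 members were called lower in sid2-1, where 0.602% of all probe sets were. Blocking on the replicate number inside each temperature gave 6 calls, of which 5 were among the 64 and 1, AT4G27280, was not. A fit of the 2 cold groups alone called 0 members, with 114 at an unadjusted p under 0.05, and 37 were called in the cold response of wild type when its own arrays alone were fitted. The count for sid2-1 against wild type at 4 °C, 64 in the main fit, was 41 when sid2-1 replicate 3 at 22 °C was omitted. It was 28 or 39 when sid2-1 replicate 1 or 2 at 4 °C was. No member was called in the opposite direction in either contrast, where 6.19% and 0.0132% of all probe sets were. The difference of the cold responses was called for 4 members, all of them lower, where 0.0572% of all probe sets were called lower and 0.0615% in either direction. The named ones are AT1G66090 and AT5G43910, whose replicates lay closest together. That count was 0 with a replicate block of either kind and ran from 0 to 27 over the fits that left out 1 array, reaching 27 when replicate 3 of cold wild type was omitted and 14 when replicate 2 was. It was 0 when replicate 1 of warm wild type, any of the warm sid2-1 arrays or replicate 2 of cold sid2-1 was omitted, 2 for replicate 3 of warm wild type and 1 for replicate 1 of cold sid2-1. In the cold response of sid2-1 limma called no member, where it called 6.28% of all probe sets in either direction, and 4 members had an unadjusted p under 0.05, against 20.6% of all probe sets.

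On single arrays, 116 members (95.9%) had all 3 wild-type signals at 4 °C above all 3 of sid2-1, against 6.09% of all probe sets. The named exceptions are AT3G23550, WRKY6 and UGT87A2. All 3 wild-type signals at 4 °C lay above the other 9 arrays for 114 members, against 3.38% of all probe sets, and AT4G27280 is a further named exception there. Both counts follow in large part from the rule.

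**Figure D2:**
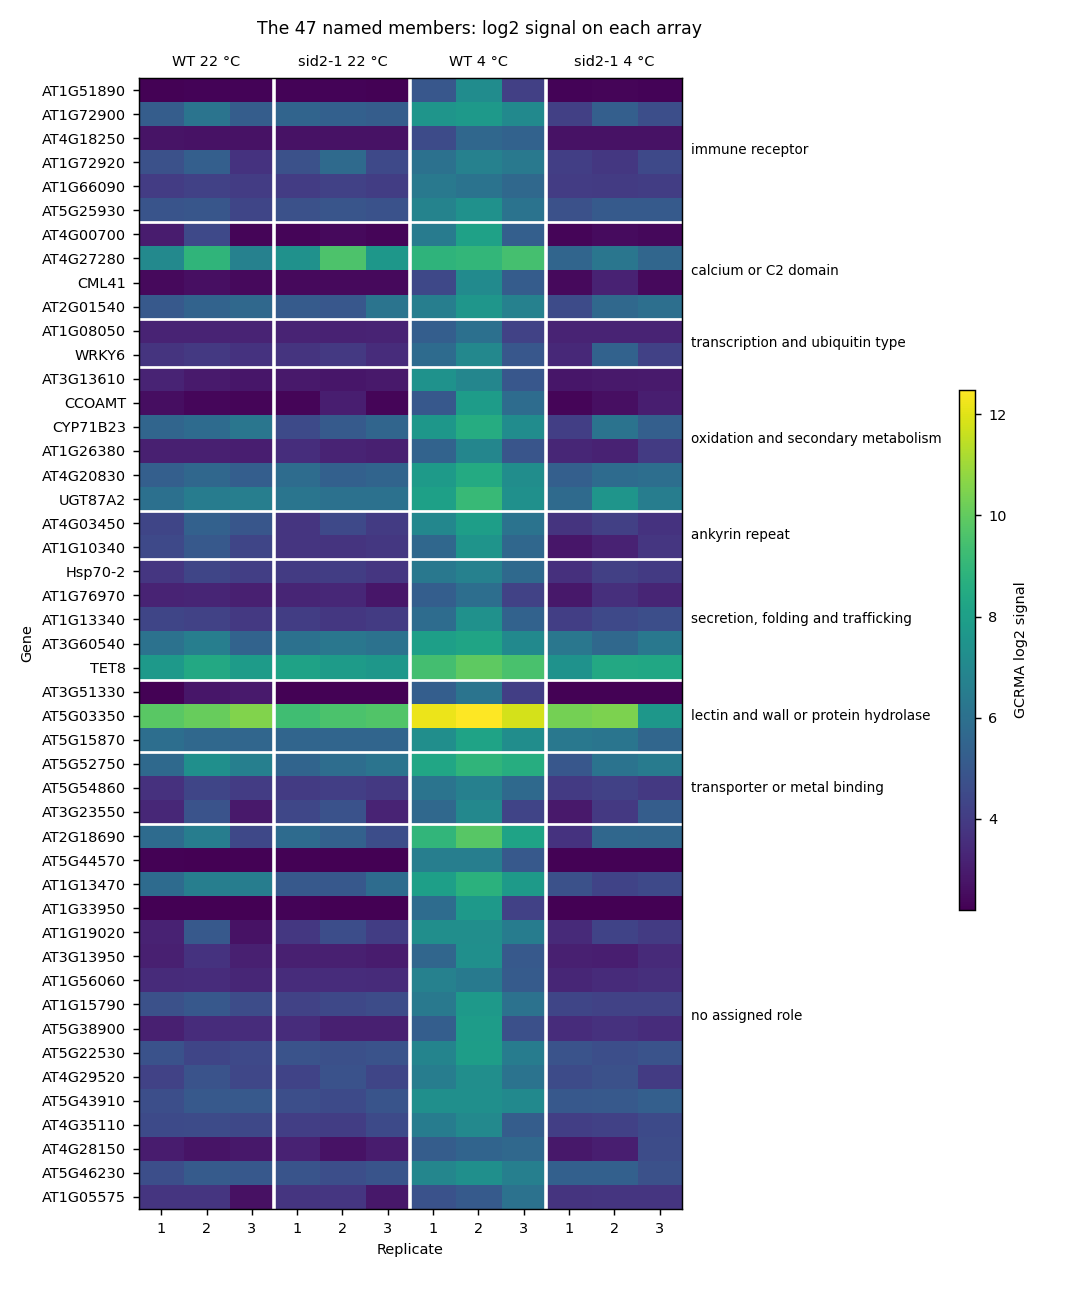
Log2 signal of the 47 named members (rows, grouped by the role of the encoded protein) on the 12 arrays (columns, grouped by genotype and temperature), with the colour scale running from the lowest to the highest value shown. The wild-type columns at 4 °C are the brightest in nearly all rows, replicate 2 most of all, and AT5G03350 has the highest signals.

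Immune receptors formed a role group of 6 named members. AT1G72900, AT1G72920 and AT1G66090 encode proteins with the Toll/interleukin-1 receptor (TIR) domain of intracellular immune receptors, AT1G51890 and AT5G25930 encode leucine-rich repeat receptor kinases, and AT4G18250 encodes a receptor kinase with a thaumatin-like outer domain. AT1G72900 had log2 signals of 5.25, 6.16 and 5.24 in wild type at 22 °C and 7.55, 7.78 and 7.06 at 4 °C. In sid2-1 they were 5.52, 5.37 and 5.24 at 22 °C and 4.13, 5.30 and 4.67 at 4 °C. In the mutant 2 of the cold arrays lay below all warm arrays and replicate 2 lay among them, and the genotypes did not overlap in the cold (difference -2.76 ± 0.35, SE, n = 3 against 3, or 6.79-fold lower).

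AT1G66090 had the tightest replicates among the receptors, with 6.37, 6.12 and 5.69 in wild type at 4 °C and between 3.97 and 4.19 on the other 9 arrays. Its difference at 4 °C was -2.05 ± 0.14 (SE, n = 3 against 3). AT1G51890 lay near the lowest value outside the cold wild type, at 2.28 to 2.36 on the other 9 arrays, and reached 4.99, 7.21 and 4.13 in wild type at 4 °C. AT4G18250 stood at 2.69 on 7 arrays, among them all 6 of sid2-1, against 4.55, 5.64 and 5.44 in cold wild type. The sizes of both differences depend on the background correction, which sets such repeated low values. AT1G72920 and AT5G25930 differed by -2.22 ± 0.46 and -1.79 ± 0.30 (SE) at 4 °C, and in AT1G72920 the sid2-1 mean was lower in the cold than at 22 °C by 0.85 ± 0.46.

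AT1G72920 and AT1G72900 lie 2 genes apart, the only pair of named members within 3 genes of each other in the order of protein-coding genes in the RefSeq table. AT1G72940, a further TIR-domain gene 2 places beyond AT1G72920, is no member, since wild type gained 0.79 in the cold. Its mean was 5.68 at 22 °C and 3.90 at 4 °C in sid2-1, and 5.81 and 6.6 in wild type, a genotype difference in the cold of -2.70 ± 0.38 (SE, n = 3 against 3, limma adjusted p = 0.0204). Over 130 measured genes that lie within 3 genes of a member and are neither members nor entries left out by the rule, the median difference at 4 °C was 0.00, and 2 of them were lower in sid2-1 by at least 1.

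Calcium-binding and C2-domain proteins made up 4 members. CML41, a calmodulin-like protein, had 4.41, 7.10 and 5.18 in wild type at 4 °C and 2.47, 3.18 and 2.48 in cold sid2-1, where 2.47 recurred on 4 arrays. AT4G00700, which encodes a protein with C2 domains that bind membranes, had 6.47, 8.10 and 5.31 in cold wild type and 2.36, 2.50 and 2.41 in cold sid2-1. At 22 °C AT4G00700 was at 2.99, 4.45 and 2.36 in wild type and at 2.34, 2.46 and 2.34 in sid2-1, so that wild-type replicate 2 stood out at both temperatures. AT2G01540, a small C2-domain protein, differed by -1.57 ± 0.46 (SE) at 4 °C.

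AT4G27280, an EF-hand calcium-binding protein, had the largest fall of all members in cold sid2-1. A fall of at least 0.75 there was seen in 7 members, against 6.77% of all probe sets. The signals of AT4G27280 were 7.03, 8.94 and 6.72 in wild type and 7.41, 9.59 and 7.65 in sid2-1 at 22 °C. In the cold they were 8.87, 9.0 and 9.44 in wild type and 5.54, 6.24 and 5.60 in sid2-1. The warm groups overlapped each other and replicate 2 was the highest in both, while the cold groups were apart by -3.31 ± 0.69 (SE, n = 3 against 3). Most of that gap came from a lower signal in cold sid2-1 (-2.42 against its warm mean, the lowest of all members) and less from the gain in wild type (1.54, near the threshold). It is the member that the sid2-1 cold response calls, as lower, when the replicate block is used or dim probe sets are filtered out. Leaving out some single arrays removed it from the members, as was the case for many named members. Of the 47, 23 were found in every such setting.

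**Figure D3:**
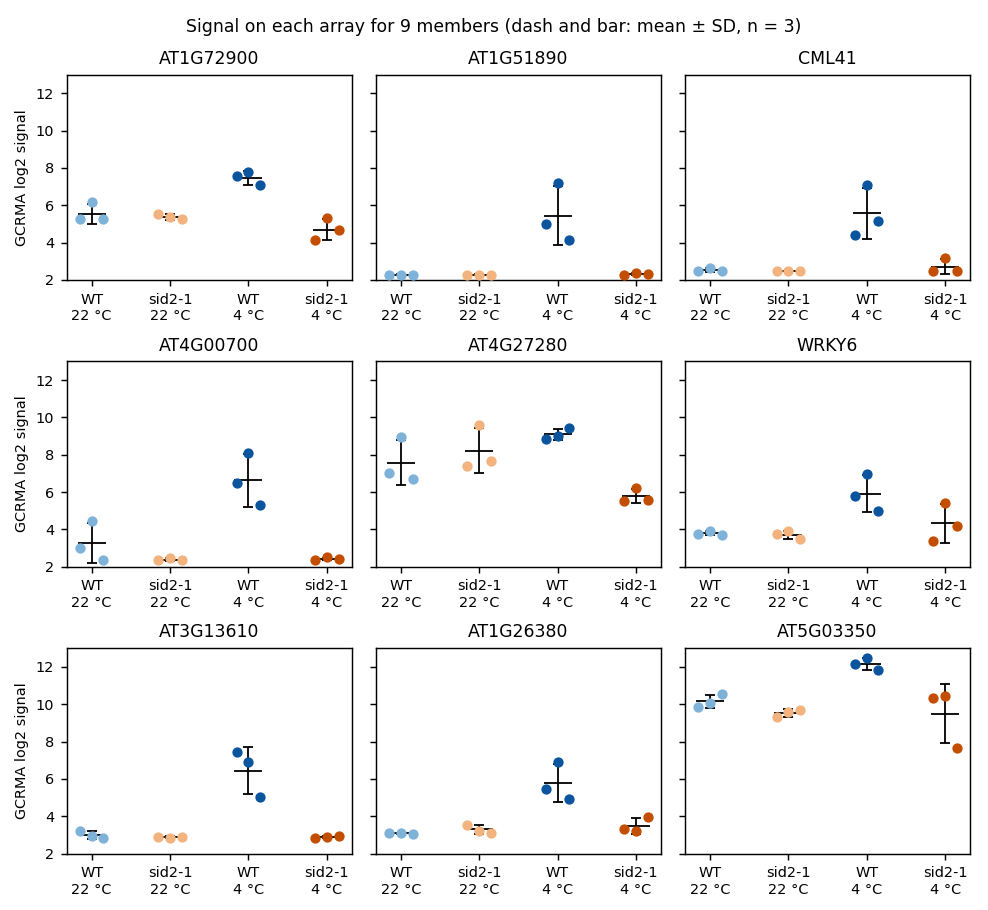
Log2 signal on each of 3 arrays per group for 9 members of different roles, with dashes and bars for the mean ± SD (n = 3). AT1G72900, CML41 and the others shown are highest in wild type at 4 °C, whereas AT4G27280 is also high at 22 °C and lowest in cold sid2-1, and WRKY6 overlaps between the genotypes in the cold.

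Enzymes of oxidation and secondary metabolism gave 6 members. AT3G13610 encodes F6'H1, the feruloyl-CoA hydroxylase that makes the coumarin scopoletin. It had 7.43, 6.90 and 5.01 in wild type at 4 °C and between 2.83 and 3.22 on the other 9 arrays, a difference of -3.56 ± 0.51 (SE, n = 3 against 3, or 11.8-fold). CCOAMT, annotated as a caffeoyl-CoA O-methyltransferase of phenylpropanoid metabolism, had 5.02, 7.89 and 5.85 in cold wild type and 2.36, 2.63 and 3.08 in cold sid2-1. Both enzymes act on CoA esters of hydroxycinnamic acids, and both were at or below 3.22 at 22 °C in either genotype.

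AT1G26380 and AT4G20830 encode berberine bridge enzyme-like oxidases, the first known for a cyanogenic indole compound of defence and the second for the oxidation of cell wall oligogalacturonides. AT4G20830 had 7.79, 8.49 and 7.25 in wild type and 5.31, 5.79 and 5.92 in sid2-1 at 4 °C (difference -2.17 ± 0.30, SE), with warm signals of 5.29 to 5.85. AT1G26380 had 5.46, 6.91 and 4.93 against 3.32, 3.19 and 3.98 in the cold. The cytochrome P450 gene CYP71B23 differed by -2.61 ± 0.54 (SE). The UDP-glucosyltransferase UGT87A2 overlapped between genotypes in the cold, with 8.06, 9.14 and 7.35 in wild type and 5.77, 7.56 and 6.57 in sid2-1.

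WRKY6, a WRKY transcription factor of defence and senescence, was grouped with AT1G08050 under transcription and ubiquitin transfer. It had 5.79, 6.98 and 5.0 in wild type and 3.39, 5.43 and 4.17 in sid2-1 at 4 °C, against 3.50 to 3.92 in warm plants of both genotypes. Replicate 2 was the highest in both cold groups, and the groups overlapped, with a difference of -1.59 ± 0.57 (SE). AT1G08050, a RING-type zinc finger protein, stood at 3.20 to 3.23 on the other 9 arrays and at 5.27, 5.99 and 4.23 in cold wild type.

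Ankyrin repeat proteins of membranes, a family with known members in salicylic acid-dependent cell death, gave AT4G03450 and AT1G10340. AT4G03450 had 6.96, 7.98 and 6.12 in wild type and 3.74, 4.15 and 3.70 in sid2-1 at 4 °C, a difference of -3.16 ± 0.45 (SE, n = 3 against 3). For AT1G10340 the cold signals were 5.63, 7.51 and 5.62 against 2.82, 3.20 and 3.82. Both were also lower in sid2-1 at 22 °C, by -0.82 ± 0.45 and -0.83 ± 0.50 (SE), and the warm groups of AT1G10340 did not overlap.

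The secretory pathway, protein folding and membrane trafficking were represented by 5 members with differences of -2.35 to -1.56 at 4 °C. AT3G60540, the beta subunit of the SEC61 channel into the endoplasmic reticulum, had 8.0, 8.19 and 7.07 in cold wild type and 6.26, 5.69 and 6.32 in cold sid2-1. TET8, a tetraspanin found on extracellular vesicles, had 9.40, 9.94 and 9.51 against 7.44, 8.42 and 8.32. The chaperone gene Hsp70-2 differed by -2.35 ± 0.25 (SE), AT1G76970, a TOM1-like adaptor of ubiquitinated cargo, by -1.91 ± 0.38, and AT1G13340, of the IST1-like family, by -1.81 ± 0.44. BZIP60, which controls genes for unfolded proteins in the endoplasmic reticulum, stood just outside the rule, with a difference of -1.33 at 4 °C and gains of 1.93 in wild type and 0.73 in sid2-1.

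AT5G03350, a legume lectin-like protein known as a salicylic acid-responsive gene, had the highest signals of all members. It stood at 12.18, 12.48 and 11.81 in cold wild type and at 10.35, 10.46 and 7.66 in cold sid2-1, where replicate 3 lay far below the other 2 arrays (mean 9.49 ± 1.59, SD, n = 3). At 22 °C it was already at 9.84, 10.09 and 10.55 in wild type and 9.31, 9.58 and 9.69 in sid2-1. Without that low array it was no longer a member, since the mean of the other 2 cold mutant arrays lay more than 0.75 above the warm sid2-1 mean. The aspartyl protease-like gene AT3G51330 had 5.26, 6.15 and 4.1 in cold wild type and 2.27 or 2.28 on the sid2-1 arrays. AT5G15870, a glucanase-like glycosyl hydrolase, had the smallest genotype difference of the named members (-1.51 ± 0.26, SE).

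Transport and metal binding gave AT5G52750, AT5G54860 and AT3G23550. AT5G52750 encodes a heavy-metal-associated domain protein and had 8.29, 8.93 and 8.60 in cold wild type and 5.01, 6.11 and 6.47 in cold sid2-1. It lies beside 1 of the entries left out by the rule, AT5G52760, which met the rule's thresholds with a difference of -3.53 ± 0.26 (SE) at 4 °C. AT5G54860, a transporter of the major facilitator type, had 6.15, 6.68 and 5.73 against 3.95, 4.18 and 3.90. AT3G23550, a MATE efflux carrier, had the largest SE of the named members (0.87), with 5.66, 6.99 and 4.30 against 2.91, 3.91 and 5.25, and the genotypes overlapped.

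The other 16 named members were placed in no role group and had differences of -3.99 to -1.56 at 4 °C. AT2G18690 had 8.98, 9.79 and 8.18 in wild type and 3.72, 5.64 and 5.61 in sid2-1 in the cold, against 4.43 to 6.56 in warm plants. AT5G44570 and AT1G33950, the latter of the AIG1-type GTPase family, lay at or below 2.32 on the other 9 arrays and had 6.59, 6.6 and 5.07, and 5.83, 7.74 and 4.2, in cold wild type. AT1G13470 stood at 7.99, 8.76 and 7.82 in cold wild type and at 4.75, 4.26 and 4.48 in cold sid2-1, below all warm arrays. AT1G19020 had 7.26, 7.27 and 6.50 against 3.41, 4.27 and 3.97.

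Among the rest of that group AT5G43910 had the closest replicates, with 7.33, 7.33 and 7.08 in cold wild type and 5.03, 5.08 and 5.33 in cold sid2-1 (difference -2.10 ± 0.14, SE). AT4G28150 and AT1G05575 are among the few members with wild-type replicate 3 as the highest cold array, at 5.67 and 6.07. The remaining ones are AT3G13950, AT1G56060, AT1G15790, AT5G38900, AT5G22530, AT4G29520, AT4G35110 and AT5G46230. Their differences at 4 °C ran from -2.79 ± 0.48 (AT3G13950) to -1.83 ± 0.22 (AT5G46230). AT5G38900 shows the spread, with 5.29, 7.87 and 4.72 in cold wild type against 3.49, 3.68 and 3.49.

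The 73 probe sets with no gene in the tables included 5 with a larger genotype difference at 4 °C than any named member. In cold wild type their group means had a median of 7.30, against 6.36 for the named members. Their differences at 4 °C ran from -6.16 to -1.53 (median -2.57), and those of the named members from -4.20 to -1.51 (median -2.35). The largest was that of 1 such probe set, 71.7-fold lower in sid2-1, with 9.33, 9.93 and 7.90 in cold wild type and 2.38, 3.22 and 3.07 in cold sid2-1. At 22 °C it had 6.11, 5.68 and 3.96 in wild type and 3.11, 3.93 and 5.60 in sid2-1. Of all members, 7 had a sid2-1 mean at least 0.75 lower at 4 °C than at 22 °C, against 6.77% of all probe sets, among them AT4G27280, AT1G72920 and AT1G13470. In all, 16 members had a cold sid2-1 mean under 3 and 17 had 1 exact value on at least 4 arrays, so that their folds depend on the background correction.

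The spread between replicates was not used by the rule except through the means. In cold wild type the median SD of the members was 0.72, against 0.26 for the other 9930 probe sets with a wild-type mean of at least 5 at 4 °C. In the other 3 groups the members' median SD was 0.34 in warm wild type, 0.21 in warm sid2-1 and 0.36 in cold sid2-1, against 0.25, 0.25 and 0.29 for the other probe sets. The members moved together from array to array in cold wild type. Replicate 2 was the highest of the 3 arrays for 106 members (87.6%, against 33.9% of the other probe sets) and replicate 3 the lowest for 96 (79.3%, against 31.5%).

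The order of the arrays was not shared by all cold-induced genes. Among the 237 probe sets that gained at least 1.5 in both genotypes, replicate 2 was the highest cold wild-type array for 35.0% and the lowest for 44.7%, with a median SD of 0.40. Wild-type replicate 2 was also the highest of its group at 22 °C, for 82 members (67.8%, against 30.7%), though plants of that number are not stated to be related across temperatures. In sid2-1 no array was the highest for more than 43.8% of the members. Replicate 1 of cold sid2-1 was the lowest of its group for 69 members (57.0%, against 44.8% of the other probe sets). It was also the lowest for 54.9% of the 237 probe sets. Since a high signal on 1 array raises a group mean, a probe set could enter by it: without wild-type replicate 2 at 4 °C the rule gave 77 probe sets, all of them among the 121, and without replicate 3 it gave 167. In each of the 12 settings that left out 1 array, 59 members were found, 23 of them named. Without wild-type replicate 2 at 4 °C, 28 named members remained. Those lost included the receptor genes AT1G51890, AT4G18250 and AT5G25930, and CML41, AT2G01540, AT1G10340, AT3G51330, AT1G08050, WRKY6, AT3G23550, UGT87A2 and AT5G15870. Lost too were AT1G76970, AT1G13340, AT3G60540, TET8, AT1G15790, AT5G38900 and AT4G35110. Whether plant condition, sampling or RNA handling moved these arrays was not tested.

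**Figure D4:**
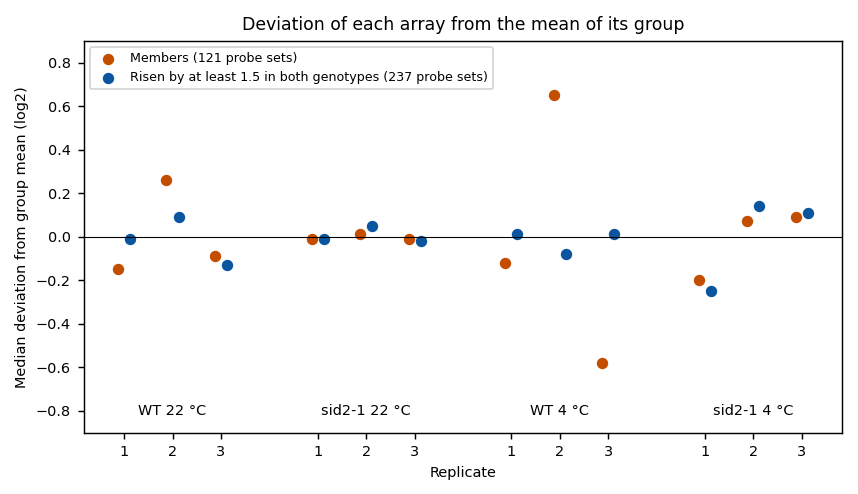
Median deviation (log2) from the group mean on each of the 12 arrays, for the 121 members (orange) and for the 237 probe sets that gained at least 1.5 in both genotypes (blue). Among the members wild-type replicate 2 at 4 °C lies at 0.65 and replicate 3 at -0.58, while the blue points of that group lie between -0.08 and 0.01.

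At 22 °C, 84 members had a lower mean in sid2-1 than in wild type and 34 a higher one, where 44.4% and 43.4% of all probe sets did. The median difference was -0.14, and 25 members were lower by at least 0.5, against 1.43% of all probe sets, and 3 higher by as much, against 2.06%. For 20 members all 3 mutant arrays lay below all 3 of wild type, against 2.40% of all probe sets. Both warm means entered the rule, which favours a low wild-type and a high sid2-1 signal, and so these counts are a description with no test. Without wild-type replicate 2 at 22 °C the median difference was -0.03.

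AT1G13470 had the largest such difference among the named members, with 5.79, 6.59 and 6.56 in wild type and 5.06, 5.04 and 5.83 in sid2-1 at 22 °C (-1.0 ± 0.33, SE). Those of AT4G00700 (-0.89 ± 0.70), AT1G10340 and AT4G03450 came next. Limma called none of the members at 22 °C, where it called 0.00440% of all probe sets, and 4 members had an unadjusted p under 0.05, against 3.03% of all probe sets. Among the named members the highest values were those of AT4G27280 (0.65 ± 0.69) and AT1G19020 (0.54 ± 0.57), within their replicate spread.

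**Figure D5:**
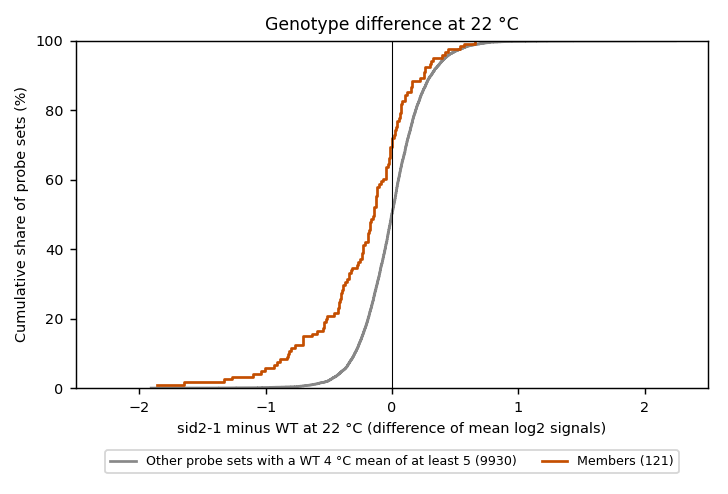
Cumulative share of probe sets (%) by the difference of mean log2 signals between sid2-1 and wild type at 22 °C, for the 121 members (orange) and the other 9930 probe sets with a wild-type mean of at least 5 at 4 °C (grey). The orange curve lies to the left over most of its length, with 69.4% of members below 0, although no member passed limma's test.

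Near each threshold the values were continuous with those of genes left outside. Inside the threshold for the gain of wild type were AT4G27280 (1.54), AT2G01540 (1.55) and TET8 (1.62), and outside it AT5G52810 (1.39), AT1G72060 (1.39) and AT5G10695 (1.25). For the gain of sid2-1, WRKY6 (0.61), AT4G28150 (0.55) and UGT87A2 (0.54) were inside and AT4G23470 (0.77), the subtilase gene SBT3.5 (0.79) and AT4G39670 (0.88) outside. AT4G39670 differed by -3.52 at 4 °C, more than most members. For the genotype difference, AT5G15870 (-1.51), UGT87A2 (-1.55) and AT1G05575 (-1.56) were inside and AT3G25600 (-1.33), BZIP60 (-1.33) and AT1G17500 (-1.21) outside. For the level in cold wild type, AT1G76970 (5.13), AT1G08050 (5.16) and AT3G51330 (5.17) were inside and AT1G65690 (4.81), AT2G32030 (4.67) and AT5G45000 (4.48) outside.

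Known genes of the salicylic acid pathway could be followed only in part, as 5 of 41 genes of that list have a named probe set and none is a member. In the cold response of wild type 2 of the 5 were called higher by limma, against 6.81% of all probe sets. None was called in that of sid2-1, with 1 at an unadjusted p under 0.05. SAG101, a lipase-like partner of EDS1, rose by 1.13 ± 0.26 in wild type (SE, limma adjusted p = 0.0225) and stood at 0.90 ± 0.26 in sid2-1 (limma adjusted p = 0.0803). UGT76B1, which glucosylates salicylic acid and isoleucic acid, was at the lowest value of the table in the other 3 groups and at 2.81 ± 0.21 (SD, n = 3) in cold wild type. It was lower in cold sid2-1 by 0.61 ± 0.08 (SE, limma adjusted p = 0.0150), a difference that starts from the lowest value and was not called when sid2-1 replicate 1 at 4 °C was omitted. In wild type 1 of the list's calls was lost when replicate 1 or 3 at 22 °C or replicate 2 at 4 °C was omitted. The list medians were 0.56 in the cold response of wild type and -0.61 between the genotypes at 4 °C, against 0.00 over all probe sets in both.

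Of the list for systemic acquired resistance, 2 of 11 genes are measured, AT5G03350 among them. The other is AT5G52810 (SARD4), a reductase of pipecolic acid synthesis, with means of 6.39 ± 0.63 and 7.78 ± 0.61 (SD, n = 3) in warm and cold wild type and 5.72 ± 0.49 and 5.44 ± 0.66 in sid2-1. Its genotype difference in the cold was -2.34 ± 0.47 (SE) and did not pass limma's test (adjusted p = 0.0908). Of 22 immune receptor kinases and related receptors in a further list only EFR is measured, near the lowest value with means of 2.25 to 2.44. Lists for the jasmonate response and for senescence had 1 of 8 genes measured each. The jasmonate-responsive defensin gene PDF1.2 differed by -1.0 ± 1.28 at 4 °C and the senescence gene SAG29 by 0.20 ± 0.14 (SE), neither of them called. In the cold PDF1.2 gained 3.59 ± 1.28 in wild type and 0.44 ± 1.28 in sid2-1 (SE), and neither gain was called. Its warm sid2-1 signals were spread, at 9.05, 4.82 and 4.69. SAG29 stood at 3.45 on 10 arrays and at 4.06 on replicate 3 of cold sid2-1, from which its difference comes.

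The list of CBF and COR genes gave another picture. Only 6 of its 18 genes are measured, none of them a gene of a CBF factor. Limma called all 6 higher in cold sid2-1 and 5 in cold wild type, against 3.20% and 6.81% of all probe sets. The exception, COR47, gained 1.33 ± 0.47 in wild type (SE, limma adjusted p = 0.104). COR15A, a protectant of chloroplast membranes, reached 13.09 ± 0.41 in wild type and 13.08 ± 0.31 in sid2-1 (SD, n = 3). The median genotype difference of the list at 4 °C was 0.17, none of the 6 was called by limma and none had an unadjusted p under 0.05. The 4 measured reference genes had a median difference of 0.01 between the genotypes at 4 °C. Of these, AT4G34270 alone was called higher in the cold, by 0.46 ± 0.10 in wild type and 0.49 ± 0.10 in sid2-1.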

How the data were processed

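Total RNA was amplified, labelled with biotin and hybridized to 1 array per sample, per the labels. The deposited values are log2 signals that the authors made with GCRMA, per the submitters' processing notes, which also name limma; versions and the set of arrays normalized together are not given in the sources used here. From 22810 probe sets, 64 controls were left out. Probe sets were named through the platform table and the RefSeq gene table (TAIR10.1), which holds 13436 of the 13513 probe sets with 1 gene. The number of arrays limits the precision.

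One limma 3.58.1 model (R 4.3.3) with a mean per group was fitted to all 12 arrays, with 8 residual degrees of freedom, and p values were adjusted by Benjamini-Hochberg over 22746 probe sets, with calls under 0.05. The fit was tested on simulated data with independent noise for each probe set and array. Such data hold no shift shared by probe sets within an array, so the test does not cover that feature of the members. Tables and plots used Python 3.11.15, pandas 2.3.3 and matplotlib 3.10.9. An SE of a difference comes from this fit. Errors written as SD are those of 3 arrays.

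Members and gene lists were chosen with earlier results of these data known. All named members are given; role groups rest on textbook knowledge and were set after the values were seen. Per-array values were given for the larger differences of each role group, the highest signals, the largest differences at 22 °C and members that differ in pattern, the last chosen after their values were seen. Replicate numbers were checked by the correlation of deviations from group means over 12426 probe sets. Within each temperature all same-numbered pairs exceeded 0.1, from 0.21 to 0.47, whereas across temperatures some did not (lowest -0.05). The block within each temperature was therefore added after seeing the data. Over the 121 members alone, the same-numbered pairs of the genotypes had correlations of 0.36 to 0.49 at 22 °C and -0.06 to 0.08 at 4 °C. Promoter motifs and sequences were not analysed here.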

Additional observations from a re-analysis of the deposited data

How the results depend on the processing

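The rule gave 56 probe sets with stricter thresholds (2, 0.5 and -2), 245 with looser ones (1, 1 and -1), and 77 to 167 when 1 array was left out. With group medians in place of means it gave 115, of which 96 were among the 121 members. Of the 167 found without wild-type replicate 3 at 4 °C, 117 were. Calls among the 121 members moved as follows, where the filter on dim probe sets (a mean over all arrays of at least 4) left 95 of them. For the cold response of wild type, 37 were called in a fit of its groups alone. For that of sid2-1, 1 was called with a replicate block, 1 with dim probe sets filtered out, and 0 to 1 over the fits without 1 array. For sid2-1 against wild type at 4 °C, 6 were called with the replicate block within each temperature, 0 in a fit of its groups alone (114 at an unadjusted p under 0.05), and 28 to 76 without 1 array. For the interaction, 0 were called with a replicate block (112 at an unadjusted p under 0.05) and 0 with the block within each temperature (111). It was called for 20 with dim probe sets filtered out, and for 0 to 27 without 1 array. All these counts are of members chosen on the same group means, and shares over all probe sets are not given for these fits. In the salicylic acid list the calls ran from 1 to 2 in the cold response of wild type, from 0 to 1 between the genotypes at 4 °C and from 0 to 1 in the interaction when 1 array was left out. Fits with fewer arrays or with a block have fewer residual degrees of freedom; beyond that, the cause was not tested. The median differences of the members moved by less than the replicate spread. That of the cold response of sid2-1, 0.04, was 0.00 without sid2-1 replicate 2 or 3 at 4 °C, and the others kept their direction; the replicate block changed no other call count by over 1.5 times.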
